A study of Mus musculus with 11 samples.

Results

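A set of 10 marker genes of mononuclear phagocytes was followed across mouse neuroblastomas. The 10 genes were chosen by symbol among the 24411 genes of the deposited expression table. Of these, 3 mark inflammatory monocytes (Ly6c2, Ccr2 and Fcgr1) and 7 mark tissue macrophages (Cx3cr1, C1qa, C1qb, C1qc, Mrc1, Msr1 and Csf1r). All 10 were found, and all 10 were measured at 1 TPM or more in at least 2 libraries, the level required for testing. TPM is the number of transcripts of a gene per 1000000 transcripts, corrected for transcript length, so TPM levels may be set side by side between genes.

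The study gave 1 dose of the curaxin CBL0137, the histone deacetylase inhibitor panobinostat, or both to mice with spontaneous tumours, and sequenced RNA from the tumours. Every mouse was homozygous for the Th-MYCN transgene, in which the tyrosine hydroxylase promoter drives MYCN in cells of the sympathetic lineage, so the vehicle mice carried it as well. Dosing began once a tumour was felt at about 5 mm, and every tumour was collected 16 hours after dosing. The groups were vehicle, given intraperitoneally (n = 3), CBL0137 at 40 mg/kg, given intravenously (n = 3), panobinostat at 5 mg/kg, given intraperitoneally (n = 2, replicates 1 and 3), and the combination of both drugs (n = 3). Replicate 2 of panobinostat was not analysed here. The age of the mice is not given in the sources used here. The libraries came from ribosome-depleted total RNA of whole tumours, in which more cells of a type and more RNA per cell cannot be told apart.

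Monocytes leave the bone marrow, circulate in the blood and enter inflamed tissue and tumours, where they can become macrophages. In mice the classical, inflammatory monocyte carries much Ly6C and the chemokine receptor CCR2 and little CX3CR1, whereas patrolling monocytes and many resident macrophages carry CX3CR1. Macrophages depend on signals through the receptor CSF1R and are a main source of the complement component C1q.

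The markers were detected in vehicle tumours at very different levels. The 3 C1q chains had the highest levels, with means of 68.4 to 94.9 TPM, and Ly6c2 and Fcgr1 the lowest, both with a mean below 1 TPM. Of other macrophage genes listed as markers, 21 of 24 averaged 1 TPM or more in vehicle, among them Cd68 at 23.2, 28.0 and 29.4 TPM and Adgre1, which encodes F4/80, at 10.9, 10.1 and 9.04 TPM. Of 12 other monocyte markers, 8 reached that level. Each of these listed macrophage and monocyte genes was above 0 in at least 1 vehicle library. Beside the counts at 1 TPM or more, 12856 to 13517 of the 24411 genes reached 1 TPM in a vehicle library. The counts alone do not name the cells present.

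CBL0137 replicate 3 stood apart from its group before any comparison. CBL0137 replicate 3 had the highest value of its group for all 10 markers. Its 10 pan-leukocyte genes summed to 871 TPM, against 315 and 330 TPM in the other CBL0137 libraries. Its 8 B cell markers summed to 179.9 TPM (5.37 and 30.4 TPM in the others) and its T cell markers to 73.2 TPM (10.4 and 21.5 TPM). The marker differences and list counts for CBL0137 were therefore also computed without CBL0137 replicate 3. Combination replicate 1 also had high lymphocyte sums for its group. Its T cell markers summed to 88.7 TPM (41.45 and 30.9 TPM in the others) and its B cell markers to 73.9 TPM (25.3 and 22.8 TPM). Its pan-leukocyte sum was 1717 TPM (1606 and 1336 TPM), and it was highest for some of the 10 markers, not all. The lists were not refitted without it. All libraries sum to 1000000 TPM, and sequencing depth is not known from such values.

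Against vehicle, the markers rose in each treated group, but different markers rose furthest. After CBL0137, 7 of 10 rose (4.99% of the 15497 genes tested rose), from 1.30 for C1qc to 4.98 for Ly6c2 in differences of log2(TPM + 1). Cx3cr1, Mrc1 and Csf1r did not pass the test. After panobinostat all 10 rose (25.5% of genes tested rose), from 2.28 for Csf1r to 4.48 for Ccr2. After the combination all 10 rose again (35.9% of genes tested rose), from 1.24 for Cx3cr1 to 7.54 for Ly6c2. The median difference over the 10 was 1.51, 2.97 and 3.90 in that order, beside -0.012, 0.10 and 0.082 over all genes tested. These 3 comparisons share the vehicle libraries, and the log2(TPM + 1) scale understates the change of genes with low TPM. Without CBL0137 replicate 3, 5 of 10 rose after CBL0137 (3.33% of genes tested rose), with the calls on Ccr2 and C1qc lost.

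The CBL0137 differences were all lower without this replicate. For the monocyte markers they were 4.60 for Ly6c2 (adjusted p = 0.000654), 2.95 for Fcgr1 (adjusted p = 0.000218) and 1.31 for Ccr2 (adjusted p = 0.109). Among the macrophage markers they were 2.06 for Msr1 (adjusted p = 0.000717), 1.42, 1.203 and 0.999 for C1qa, C1qb and C1qc (adjusted p = 0.00829, 0.00792 and 0.0535), 1.19 for Mrc1, 0.48 for Csf1r and -0.36 for Cx3cr1. Fitted the same way, the pan-leukocyte list rose in 10 of 10 genes (median 1.39), the interferon list in 10 of 10 (median 5.07), the Fc receptor list in 5 of 5, other monocyte markers in 4 of 12 (median 1.42), CSF1R signalling in 5 of 12, myeloid transcription factors in 3 of 10 and scavenger and lectin receptors in 3 of 15. The counts for the fibroblast, microglial, T cell, B cell and natural killer cell lists were the same as with it. In this fit 3.33% of all genes tested rose after CBL0137.

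**Figure D1:**
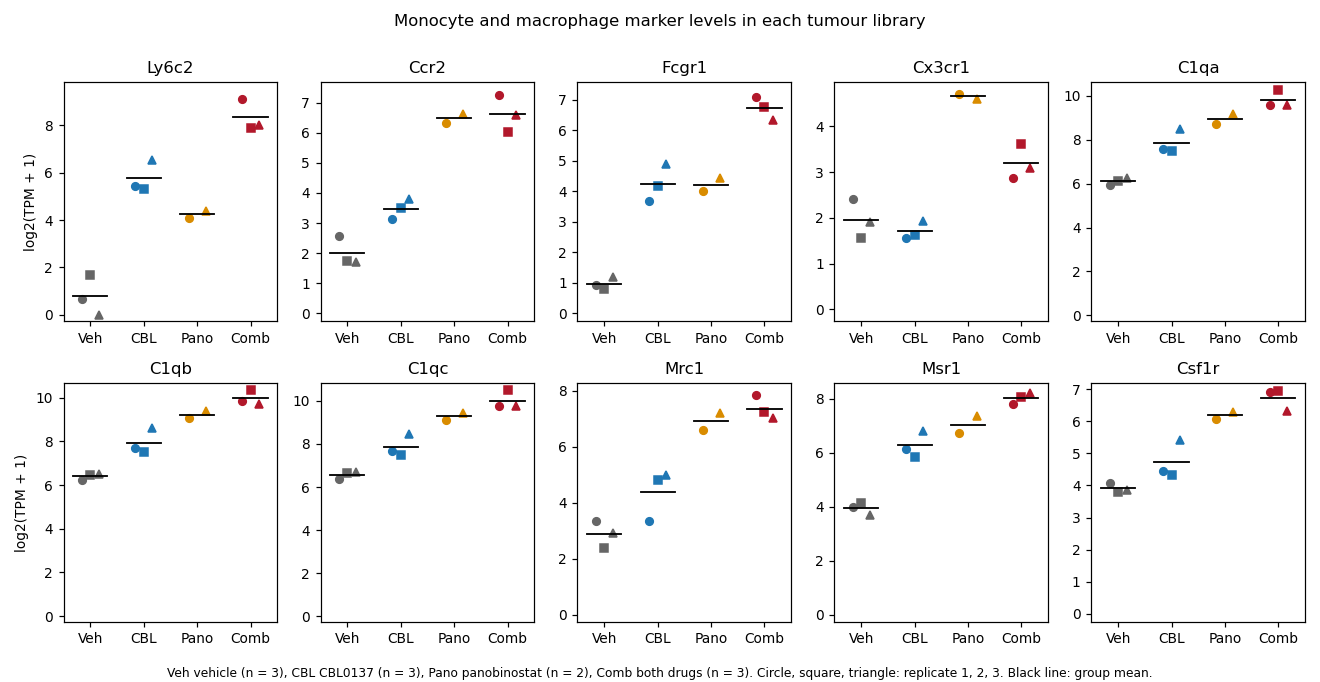
Level of each of the 10 markers, as log2(TPM + 1), in each of the 11 tumour libraries (Veh vehicle, CBL CBL0137, Pano panobinostat, Comb combination; symbols are replicate numbers, black lines group means). Ly6c2 and Fcgr1 are highest in the combination, while Cx3cr1 is highest in the 2 panobinostat libraries.

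The treatments were also compared with one another. Adding panobinostat to CBL0137 raised all 10 markers (33.2% of genes tested rose), by 1.48 for Cx3cr1 to 3.14 for Ccr2. Adding CBL0137 to panobinostat raised 3 (6.24% of genes tested rose), namely Ly6c2, Fcgr1 and Msr1, and lowered 1 (4.30% of genes tested fell), Cx3cr1. Between the single drugs, 7 were higher after panobinostat than after CBL0137 (12.1% of genes tested were higher), and Ly6c2, Fcgr1 and Msr1 did not pass the test. All 7 of those calls were lost without panobinostat replicate 3 and when only those groups were fitted, and in both of these fits 0 of all genes were called, in place of 2935. The estimates changed less: over 24 alternatives Ccr2 was higher after panobinostat by 2.62 to 3.17 and Cx3cr1 by 2.01 to 3.37.

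**Figure D2:**
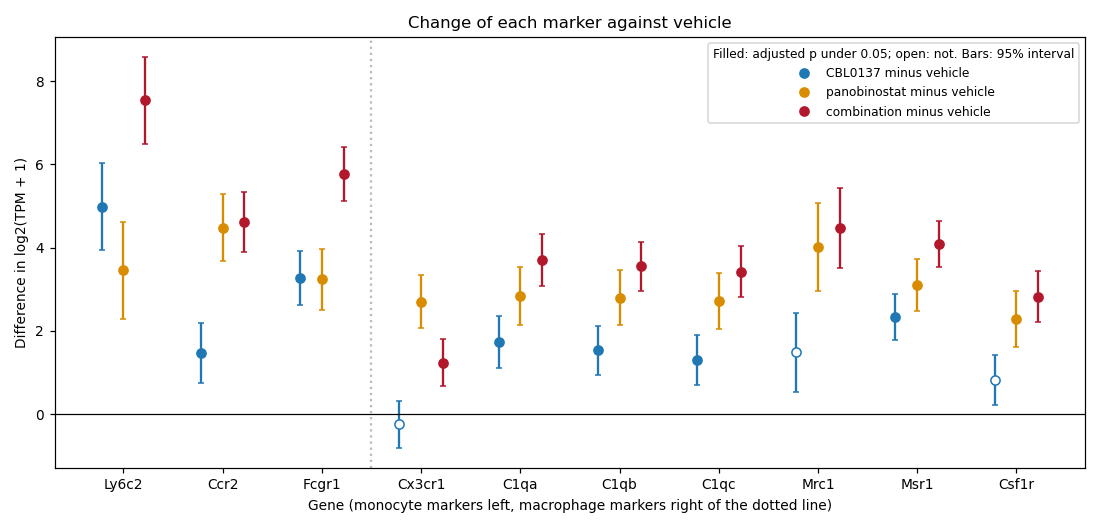
Difference of each marker from vehicle in log2(TPM + 1), with 95% intervals, for CBL0137, panobinostat and the combination; filled points passed an adjusted p of 0.05 and open points did not. The combination points lie highest for Ly6c2 (7.54) and Fcgr1 (5.76), and for Cx3cr1 the panobinostat point (2.70) lies above the combination point (1.24).

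The stretches of genome before a start of Ly6c2, Fcgr1 and Cx3cr1 are shown for context. When CBL0137 was added to panobinostat, Ly6c2 and Fcgr1 rose and Cx3cr1 fell. Each stretch is the 250 bases before a RefSeq start on the gene's own strand, read from the GRCm38.p6 build, in lower case. Capitals mark letters matching one of 3 motifs searched on both strands: the interferon-stimulated response element (GAAA, any 2 bases, GAAA), a site of the myeloid factor PU.1 (GAGGAAGT) and a C/EBP site (TTGCNNAAT). The Ly6c2 stretch is chr15:75111972-75112221, the Fcgr1 stretch chr3:96293970-96294219 and the Cx3cr1 stretch chr9:120068297-120068546, all on the minus strand.
Ly6c2: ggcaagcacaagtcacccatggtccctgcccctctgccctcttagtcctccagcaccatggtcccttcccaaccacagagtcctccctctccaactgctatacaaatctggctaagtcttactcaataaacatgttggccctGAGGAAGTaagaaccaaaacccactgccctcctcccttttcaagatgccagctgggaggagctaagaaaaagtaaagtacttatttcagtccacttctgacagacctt
Fcgr1: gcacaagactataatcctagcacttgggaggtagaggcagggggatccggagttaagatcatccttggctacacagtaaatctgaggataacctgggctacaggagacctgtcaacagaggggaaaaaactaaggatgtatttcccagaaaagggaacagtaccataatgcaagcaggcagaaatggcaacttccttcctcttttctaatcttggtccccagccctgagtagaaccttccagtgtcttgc
Cx3cr1: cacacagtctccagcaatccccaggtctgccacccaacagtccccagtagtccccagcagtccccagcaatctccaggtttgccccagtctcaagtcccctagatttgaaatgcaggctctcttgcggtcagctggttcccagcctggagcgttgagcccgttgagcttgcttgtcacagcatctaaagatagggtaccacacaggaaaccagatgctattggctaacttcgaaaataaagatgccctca
In windows of 300 bases, which add 50 bases after the start, the PU.1 letters occurred in 3.20% of 32851 windows. Ly6c2 held the PU.1 letters at positions -108 to -101 from the RefSeq start used for the stretch shown, and again at 27 to 34. From another RefSeq start of Ly6c2 these matches lie at -142 to -135 and -8 to -1. Of the 7 markers with a printed or searched window, C1qc was the other one with the PU.1 letters. The response element letters (3.44% of windows) and the C/EBP letters (2.40%) were not among the letters of these 7 windows. A match of letters does not show that a factor binds there.

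Ly6c2 encodes the Ly6C protein of inflammatory monocytes and lies at chr15:75108158-75111970 on the minus strand. In vehicle tumours it was measured at 0.60 and 2.17 TPM in replicates 1 and 2 and listed at 0 in replicate 3. After CBL0137 the values were 42.6, 39.05 and 90.55 TPM, after panobinostat 15.95 and 19.9 TPM, and after the combination 540.5, 232 and 258 TPM. All 4 groups lay apart, in the order vehicle, panobinostat, CBL0137 and combination. The differences from vehicle were 4.98 (SE 0.47, adjusted p = 0.000283) for CBL0137, 3.45 (SE 0.52, adjusted p = 0.00108) for panobinostat and 7.54 (SE 0.47, adjusted p = 4.32e-06) for the combination. Because the vehicle level is near 0, these sizes depend on the pseudocount: for CBL0137 the difference was 6.62 with 0.1 TPM added and 3.32 with 5 TPM added. The combination exceeded panobinostat by 4.08 (SE 0.52, adjusted p = 0.00243) and CBL0137 by 2.56 (SE 0.47, adjusted p = 0.00136). Panobinostat differed from CBL0137 by -1.53 (95% interval -2.69 to -0.36, adjusted p = 0.0663). Leaving out any 1 of the 11 libraries kept the calls against vehicle and between the combination and panobinostat.

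The neighbouring gene Ly6c1 is a near copy of Ly6c2 that endothelial cells express. The transcripts of both genes were identical at 802 of 822 aligned bases, or 97.6%, with a longest shared run of 188 bases, so how reads were divided between them is uncertain. Ly6c1 measured 7.12, 7.80 and 7.43 TPM in vehicle, 59.4, 84.3 and 144.6 TPM after CBL0137, 92.4 and 113.8 TPM after panobinostat and 525, 540.2 and 249.7 TPM after the combination. Its vehicle values were thus above those of Ly6c2 in every library. With both genes summed, the difference from vehicle was 3.96, 3.70 and 6.33 for the treatments in the order above, and the combination exceeded panobinostat by 2.62 in place of 4.08. Summing also brought the difference between the single drugs from -1.53 to -0.25. The ratio of Ly6c2 to Ly6c1 lay between 0.463 and 0.718 after CBL0137 and between 0.430 and 1.03 after the combination, and at 0.173 and 0.175 in the panobinostat libraries.

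Other genes of inflammatory monocytes gave the values of Ly6c2 a context. Of 12 other monocyte markers, 5 rose after CBL0137 (4.99% of genes tested rose), 12 after panobinostat (25.5%) and 12 after the combination (35.9%). The median differences of the 12 were 1.58, 3.15 and 4.15. Plac8, an abundant transcript of Ly6C-high monocytes, measured 3.17 to 5.89 TPM in vehicle, 144.6 to 377 TPM after CBL0137, 68.2 and 74.2 TPM after panobinostat and 724 to 1505 TPM after the combination. Ms4a4c, a membrane protein gene of the same cells, differed from vehicle by 4.48, 3.21 and 6.75. Both had the group order of Ly6c2, and Plac8 was lower after panobinostat than after CBL0137 by the test (-1.60, adjusted p = 0.0245). S100a4 and Vcan, which are also expressed by monocytes, had another order, with panobinostat above CBL0137 by 2.05 (adjusted p = 0.00468) and 2.31 (adjusted p = 0.0154). The monocyte genes therefore did not share one order over the treatments.

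Ccr2, the receptor through which monocytes leave the marrow and follow CCL2, lies at chr9:124101950-124113557. It measured 4.98, 2.31 and 2.29 TPM in vehicle, 7.83, 10.2 and 12.9 TPM after CBL0137, 79.85 and 98.02 TPM after panobinostat and 149.9, 64.8 and 94.25 TPM after the combination. CBL0137 libraries lay above vehicle without overlap, and the panobinostat and combination libraries overlapped each other far above both. Its difference from vehicle was 1.47 (SE 0.32, adjusted p = 0.0286) for CBL0137, 4.48 (SE 0.36) for panobinostat and 4.61 (SE 0.32) for the combination. The CBL0137 call was lost without vehicle replicate 2 (adjusted p = 0.0985), vehicle replicate 3 (0.116), CBL0137 replicate 2 (0.0647) or CBL0137 replicate 3 (0.109). Panobinostat exceeded CBL0137 by 3.01 (SE 0.36, adjusted p = 0.00476). Between the combination and panobinostat the estimate was 0.13, with a 95% interval from -0.67 to 0.94, and its sign changed with the scaling.

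The ligands of Ccr2 are chemokines that attract monocytes, and they rose in all treated groups. Ccl2 measured 5.66 to 10.7 TPM in vehicle, 82.9 to 190.1 TPM after CBL0137, 76.0 and 129 TPM after panobinostat and 314 to 511 TPM after the combination. Ccl2, Ccl7 and Ccl12 differed from vehicle by 3.802, 3.94 and 5.55 after CBL0137, by 3.56, 3.89 and 4.83 after panobinostat, and by 5.60, 6.10 and 8.83 after the combination. All 3 were higher after the combination than after panobinostat, by 2.04 (adjusted p = 0.0146), 2.20 (adjusted p = 0.0294) and 4.004 (adjusted p = 0.00434). Ccr2 itself did not pass that test. Between the single drugs the ligand estimates were -0.24, -0.050 and -0.72, and none passed the test that Ccr2 passed.

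**Figure D3:**
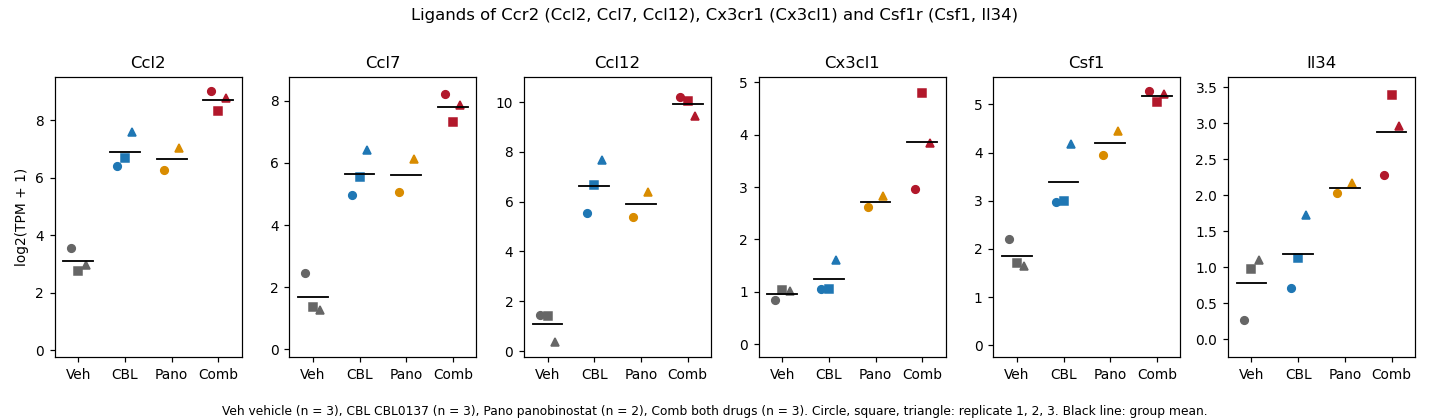
Level of the ligands of Ccr2 (Ccl2, Ccl7, Ccl12), of Cx3cr1 (Cx3cl1) and of Csf1r (Csf1, Il34), as log2(TPM + 1), in each of the 11 libraries; symbols are replicate numbers and black lines group means. The Ccr2 ligands lie above vehicle in every treated library, and Cx3cl1 lies near its vehicle level after CBL0137.

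Fcgr1 encodes the high-affinity receptor for IgG, CD64, found on monocytes and macrophages and known to be induced by interferon. It lies at chr3:96282909-96293969 on the minus strand. It measured 0.92, 0.75 and 1.26 TPM in vehicle, 11.8, 17.0 and 28.5 TPM after CBL0137, 15.0 and 20.5 TPM after panobinostat and 134, 109 and 80.8 TPM after the combination. The single-drug libraries overlapped, and the combination lay above every other library. The differences from vehicle were 3.27 (SE 0.29, adjusted p = 0.000241), 3.24 (SE 0.33, adjusted p = 0.000439) and 5.76 (SE 0.29, adjusted p = 2.52e-06). Its excess in the combination was 2.49 over CBL0137 (adjusted p = 0.000282) and 2.52 over panobinostat (adjusted p = 0.00266). The single drugs differed by -0.032, with a 95% interval from -0.76 to 0.70. These calls were kept when any 1 library was left out.

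All 5 listed genes of the Fc gamma receptor family, including Fcgr1 and the shared signalling chain Fcer1g, rose in each comparison with vehicle. In the same comparisons 4.99%, 25.5% and 35.9% of all genes tested rose. Fcgr4, an activating receptor, differed by 3.10, 2.67 and 5.24, and like Fcgr1 was higher after the combination than after panobinostat (2.57, adjusted p = 0.00510). Fcgr2b, the inhibitory receptor, differed from vehicle by 1.39, 3.20 and 4.03, and was higher after panobinostat than after CBL0137 by 1.81 (adjusted p = 0.00947). A list of 10 genes known to be induced by interferon, such as Isg15 and Ifit3, stood beside these results at a median difference of 5.55, 1.49 and 7.53, with 10, 7 and 10 of 10 rising. All 10 were lower after panobinostat than after CBL0137. Over the 15497 genes tested, 2935 were called in that comparison, 1879 of them higher. With only those groups fitted, 0 of all genes were called. The part of these interferon-induced genes in the levels of Ly6c2 and Fcgr1 was not tested.

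Of the 10 markers, Cx3cr1 alone had its highest mean after panobinostat. It encodes the fractalkine receptor and lies at chr9:119901616-120069879 on the minus strand. This span comes from another annotation than the RefSeq start used above, and the stretch printed for Cx3cr1 lies inside it. Cx3cr1 measured 4.29, 1.96 and 2.73 TPM in vehicle, 1.96, 2.07 and 2.84 TPM after CBL0137, 25.2 and 23.3 TPM after panobinostat and 6.27, 11.3 and 7.53 TPM after the combination. Vehicle and CBL0137 overlapped, the panobinostat libraries were highest, and the combination lay between them without overlap. CBL0137 differed from vehicle by -0.25, with a 95% interval from -0.82 to 0.32 (adjusted p = 0.586). Panobinostat raised Cx3cr1 by 2.70 (SE 0.29, adjusted p = 0.000445) and the combination raised it by 1.24 (SE 0.26, adjusted p = 0.00169). The latter call was lost under quantile normalization, where the difference was 0.46 (adjusted p = 0.0900) and the median of all genes moved from 0.082 to -0.26.

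Cx3cr1 fell by 1.46 (SE 0.29, adjusted p = 0.0175) when CBL0137 was added to panobinostat, and rose by 1.48 (SE 0.26, adjusted p = 0.00101) when panobinostat was added to CBL0137. The fall kept its direction in all 24 alternatives, at -1.74 to -1.15, and lost its call in 5 of them: without panobinostat replicate 1 (adjusted p = 0.109), panobinostat replicate 3 (0.0628) or combination replicate 1 (0.0531), with the replicate number as a block (0.0674) and with only those groups fitted (0.0516). Among 17 chemokine receptor genes tested in this comparison, 0 rose (6.24% of genes tested rose) and 1 fell (4.30% of genes tested fell), which was Cx3cr1. These counts are near the shares of all genes. Ccr1, a receptor for inflammatory chemokines on monocytes and macrophages, differed there by 0.45 (adjusted p = 0.484).

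Whether the effects of the drugs added up was estimated for every marker as an interaction, the combination's difference from vehicle less those of CBL0137 and of panobinostat. For Cx3cr1 it was -1.22 (95% interval -2.07 to -0.36, unadjusted p = 0.00990, limma's adjusted p = 0.372). All 10 estimates were below 0, and 0 of 10 passed the test (0.00% of genes tested passed). Over all genes, limma called 0, with 1631 at an unadjusted p under 0.05 and a median estimate of -0.018. The sign was not particular to the markers. Estimates were also all below 0 for the pan-leukocyte (-1.87 to -0.32), Fc receptor (-0.79 to -0.53) and B cell lists (-2.29 to -0.21). The endothelial (-1.42 to 0.70) and interferon lists (-0.60 to 1.93) lay on both sides of 0. The markers' estimates ranged from -1.34 for Msr1 to -0.27 for Csf1r.

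The Cx3cr1 ligand, fractalkine (Cx3cl1), is made by endothelial and neuronal cells. It measured 0.80, 1.05 and 1.02 TPM in vehicle, 1.07, 1.07 and 2.06 TPM after CBL0137, 5.12 and 6.12 TPM after panobinostat and 6.80, 26.6 and 13.3 TPM after the combination. It rose after panobinostat by 1.76 (adjusted p = 0.00891) and after the combination by 2.90 (adjusted p = 0.000104), and differed by 0.27 after CBL0137 (adjusted p = 0.7004). The receptor and its ligand thus had different highest groups, panobinostat for Cx3cr1 and the combination for Cx3cl1, although the combination exceeded panobinostat by only 1.14 for the ligand (adjusted p = 0.0984).

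**Figure D4:**
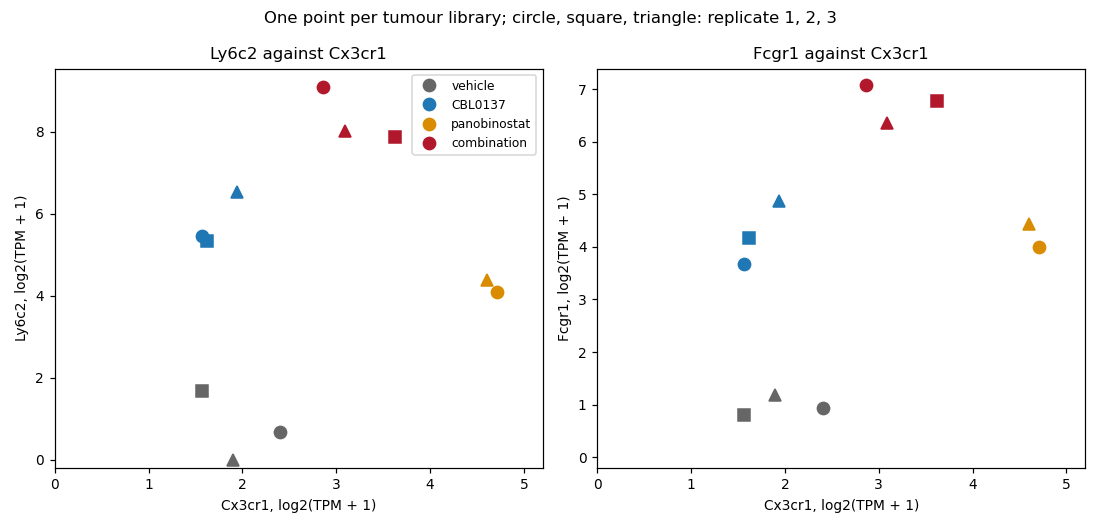
Ly6c2 (left) and Fcgr1 (right) against Cx3cr1, as log2(TPM + 1), 1 point per tumour library. The panobinostat libraries lie at high Cx3cr1 (23.3 and 25.2 TPM) and middling Ly6c2 and Fcgr1, and the combination libraries at the highest Ly6c2 and Fcgr1.

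The balance of monocyte markers and Cx3cr1 within each tumour was followed as a ratio. The TPM ratio of Ly6c2 to Cx3cr1 was 0 to 1.11 in vehicle, 18.9 to 31.9 after CBL0137, 0.633 and 0.855 after panobinostat and 20.5 to 86.2 after the combination. All 6 libraries with CBL0137, alone or combined, had a ratio above those of the 5 libraries without it. The ratio of Ccr2 to Cx3cr1 did not part the libraries in this way: it was 0.839 to 1.18 in vehicle, 3.99 to 4.95 after CBL0137, 3.17 and 4.21 after panobinostat and 5.73 to 23.9 after the combination, so that the single drugs overlapped. Both ratios are descriptions without a test and can move with either gene.

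C1qa, C1qb and C1qc encode the chains of C1q, which starts the classical complement cascade and tags dying cells for uptake. The genes lie side by side on chromosome 4, C1qb at 136880129-136886187, C1qc at 136889804-136893065 and C1qa at 136895917-136898803, all on the minus strand. C1qa measured 60.4, 68.1 and 76.6 TPM in vehicle, 193, 176 and 357 TPM after CBL0137, 420.5 and 584 TPM after panobinostat and 770.0, 1237 and 761 TPM after the combination. C1qb ranged over 75.2 to 90.7, 183 to 387, 527 to 663 and 846 to 1292 TPM in the same groups, and C1qc over 80.7 to 104, 179.7 to 356, 560.1 to 700.2 and 856 to 1441 TPM. For each chain the 4 groups lay in this order without overlap.

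C1qa rose by 1.74 (SE 0.28, adjusted p = 0.00677) after CBL0137, by 2.85 (SE 0.31, adjusted p = 0.000458) after panobinostat and by 3.70 (SE 0.28, adjusted p = 7.36e-06) after the combination. The chains were alike, with 1.30 to 1.74 after CBL0137, 2.72 to 2.85 after panobinostat and 3.42 to 3.70 after the combination. The CBL0137 call on C1qc (adjusted p = 0.0234) was lost without any 1 vehicle library (adjusted p = 0.0904, 0.0696 and 0.0700) or without CBL0137 replicate 3 (0.0535). All 3 chains were higher after panobinostat than after CBL0137, by 1.10, 1.27 and 1.42 for C1qa, C1qb and C1qc. With 1 library left out these estimates ran from 0.87 to 1.42, 1.06 to 1.59 and 1.23 to 1.72. The calls were not kept in every such fit. Between the combination and panobinostat the differences of 0.86, 0.75 and 0.70 did not pass the test (adjusted p = 0.0905, 0.109 and 0.139), and without CBL0137 replicate 3 those of C1qa and C1qb did (0.0350 and 0.0303).

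The proportions of the chains shifted a little between groups. The C1qa to C1qc ratio was 0.683 to 0.748 in vehicle, 0.964 to 1.01 after CBL0137, 0.751 and 0.834 after panobinostat and 0.858 to 0.900 after the combination. Libraries of the 4 groups did not overlap in this ratio, which was not tested. C1qb relative to C1qc was 0.870 to 0.932 in vehicle, 1.02 to 1.09 after CBL0137, 0.941 and 0.947 after panobinostat and 0.897 to 1.06 after the combination, which overlapped every other group.

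Of 25 other complement genes tested, 5 rose after CBL0137 (4.99% of genes tested rose), 16 after panobinostat (25.5%) and 18 after the combination (35.9%). In each comparison 0 fell. Without CBL0137 replicate 3, 3 of 25 rose after CBL0137 (3.33% of genes tested rose), and C5ar1 differed by 1.00 (adjusted p = 0.160). C3ar1, the receptor for the fragment C3a, differed from vehicle by 1.55, 2.83 and 3.996. C5ar1, the receptor for C5a, rose by 1.33 (adjusted p = 0.04999), 3.07 and 3.70. Cfp, which encodes the alternative-pathway regulator properdin, rose by 1.79, 2.30 and 3.24. By their means these genes had the order of the C1q chains. Panobinostat was above CBL0137 by the test for C3ar1 (1.28, adjusted p = 0.0182) and C5ar1 (1.74, adjusted p = 0.0177). For Cfp the single drugs overlapped, at 34.8 to 95.3 TPM after CBL0137 and 63.3 and 92.1 TPM after panobinostat. Cfb and C2 had higher means after CBL0137 (52.3 and 9.01 TPM) than after panobinostat (36.3 and 7.4 TPM).

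Mrc1, the mannose receptor CD206, is a lectin of resident and alternatively activated macrophages and lies at chr2:14229392-14332057. It measured 9.28, 4.26 and 6.63 TPM in vehicle, 9.20, 27.2 and 30.65 TPM after CBL0137, 95.6 and 148.6 TPM after panobinostat and 228.6, 149 and 129.9 TPM after the combination. Vehicle and CBL0137 overlapped, through CBL0137 replicate 1, as did panobinostat and the combination. It rose by 4.01 (SE 0.48, adjusted p = 0.000530) after panobinostat and by 4.47 (SE 0.43, adjusted p = 1.81e-05) after the combination. The CBL0137 difference of 1.49 had a 95% interval from 0.54 to 2.44 and missed the threshold (adjusted p = 0.0685), and without CBL0137 replicate 1 it was 2.00 (adjusted p = 0.00964). Between the combination and panobinostat Mrc1 differed by 0.46 (95% interval -0.60 to 1.52).

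Msr1, the class A scavenger receptor that takes up modified lipoproteins and debris, lies at chr8:39581685-39642673 on the minus strand. It measured 14.9, 16.8 and 12.1 TPM in vehicle, 70.4, 57.3 and 111 TPM after CBL0137, 105.0 and 165 TPM after panobinostat and 226, 269 and 299 TPM after the combination. CBL0137 and panobinostat overlapped, and the other groups lay apart. Msr1 rose most of the macrophage markers after CBL0137, by 2.33 (SE 0.25, adjusted p = 0.000717), and by 3.10 and 4.09 after panobinostat and the combination. Its excess of 0.99 over panobinostat in the combination (SE 0.28, adjusted p = 0.04998) was at the threshold and was called in 2 of the 11 fits with 1 library left out.

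Of 15 scavenger and lectin receptor genes tested, Mrc1 and Msr1 among them, 4 rose after CBL0137, 12 after panobinostat and 15 after the combination. The shares of all genes tested that rose were 4.99%, 25.5% and 35.9%. Clec4n, which encodes the fungal receptor dectin-2, rose by 1.68, 2.15 and 3.14. Cd36, a receptor for lipids, rose by 1.46, 3.18 and 3.89. Stab1, the scavenger receptor stabilin-1, differed by 0.91 (adjusted p = 0.0874), 2.13 and 2.94.

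Csf1r encodes the receptor for the macrophage growth factors CSF1 and IL-34. It measured 16.0, 12.8 and 13.5 TPM in vehicle, 20.7, 19.15 and 41.6 TPM after CBL0137, 66.6 and 78.2 TPM after panobinostat and 121, 122 and 79.6 TPM after the combination. The groups did not overlap, and combination replicate 3 lay close to the panobinostat libraries. Its CBL0137 difference of 0.82 had a 95% interval from 0.21 to 1.42 and missed the threshold (adjusted p = 0.102), and was 0.48 without CBL0137 replicate 3. It rose by 2.28 (SE 0.30, adjusted p = 0.000722) after panobinostat, the smallest rise of the 10 there, and by 2.82 (SE 0.27, adjusted p = 1.89e-05) after the combination. The combination differed from panobinostat by 0.54 (95% interval -0.14 to 1.22).

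The ligands of this receptor rose alongside it. Csf1 measured 2.11 to 3.64 TPM in vehicle, 6.84 to 17.1 TPM after CBL0137, 14.45 and 20.7 TPM after panobinostat and 32.1 to 37.8 TPM after the combination, and rose by 1.53 (adjusted p = 0.0205), 2.34 and 3.33. Il34 rose by 1.33 (adjusted p = 0.0219) after panobinostat and by 2.10 after the combination, and differed by 0.41 (adjusted p = 0.508) after CBL0137. Of 12 genes of CSF1R signalling, which include the receptor and both ligands, 5, 11 and 11 rose (4.99%, 25.5% and 35.9% of genes tested). Tyrobp, the adaptor DAP12, rose by 1.45, 2.38 and 3.04.

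Among 10 transcription factors of the myeloid lineage, 3 rose after CBL0137 and 10 after either panobinostat or the combination. Beside these counts, 4.99%, 25.5% and 35.9% of all genes tested rose after CBL0137, panobinostat and the combination. Spi1, which encodes PU.1, rose by 2.00 (adjusted p = 0.00870), 3.12 and 4.23, and Cebpb by 1.35 (adjusted p = 0.0103), 2.40 and 3.46. Maf, a factor of mature macrophages, differed after CBL0137 by 0.99 (adjusted p = 0.0984) and rose after panobinostat by 2.82. It was higher after panobinostat than after CBL0137 by 1.83 (adjusted p = 0.0139).

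The order of the markers by level changed between groups. The C1q chains had the highest means in all 4 groups, and their libraries overlapped one another in each. In vehicle they were followed by Msr1 and Csf1r, which overlapped, then Mrc1, Ccr2 and Cx3cr1, of which each overlapped the next, then Fcgr1 and Ly6c2. After CBL0137 Ly6c2 ranked 5 at a mean of 57.4 TPM and overlapped its neighbours Msr1 and Csf1r, and Cx3cr1 was last at 2.29 TPM, below every library of Ccr2. Panobinostat left Cx3cr1 above Ly6c2, with means of 24.2 and 17.9 TPM and no overlap, and Fcgr1, which overlapped Ly6c2, last at 17.75 TPM. In the combination Ly6c2 ranked 4 at 343 TPM, next to the C1q chains and overlapping Msr1, and Cx3cr1 was last at 8.37 TPM, apart from all other markers.

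The markers were also set against the leukocyte content of each tumour. The 10 genes of all leukocytes, such as Ptprc, which encodes CD45, rose in each comparison with vehicle (10 of 10). The shares of genes tested that rose were 4.99%, 25.5% and 35.9%, and the medians of the 10 genes were 1.82, 2.53 and 3.78. Their mean log2(TPM + 1) was 3.04 to 3.19 in vehicle, 4.53 to 5.93 after CBL0137, 5.67 and 5.86 after panobinostat and 6.57 to 6.90 after the combination. This mean was subtracted from each marker in each library as a description, without a test. Relative Cx3cr1 was -1.63 to -0.75 in vehicle and -1.26 and -0.96 after panobinostat, and lower at -3.99 to -2.91 after CBL0137 and -4.04 to -3.26 after the combination. Cx3cr1 itself differed from vehicle by -0.25 after CBL0137 and by 1.24 after the combination, so these lower values mostly reflect the higher panel mean. Relative Ly6c2 was -3.04 to -1.53 in vehicle and -1.58 and -1.47 after panobinostat, and higher at 0.59 to 0.86 and 0.98 to 2.18 with CBL0137 present. The lowest vehicle value is that of replicate 3, where Ly6c2 was listed at 0 and the value is minus the panel mean. Relative Ccr2 had another order, with -1.47 to -0.57 in vehicle, -2.13 to -1.04 after CBL0137, 0.67 and 0.77 after panobinostat and -0.84 to 0.34 after the combination. Relative Fcgr1 was -2.38 to -1.86 in vehicle, -1.05 to -0.36 after CBL0137, -1.67 and -1.43 after panobinostat and -0.22 to 0.18 after the combination. Relative C1qa overlapped between vehicle (2.79 to 3.24), CBL0137 (2.56 to 3.01) and the combination (2.69 to 3.39), and was 3.05 and 3.33 after panobinostat. Relative Csf1r was 0.60 to 0.94 in vehicle, -0.52 to -0.15 after CBL0137, 0.41 and 0.45 after panobinostat and -0.24 to 0.062 after the combination.

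**Figure D5:**
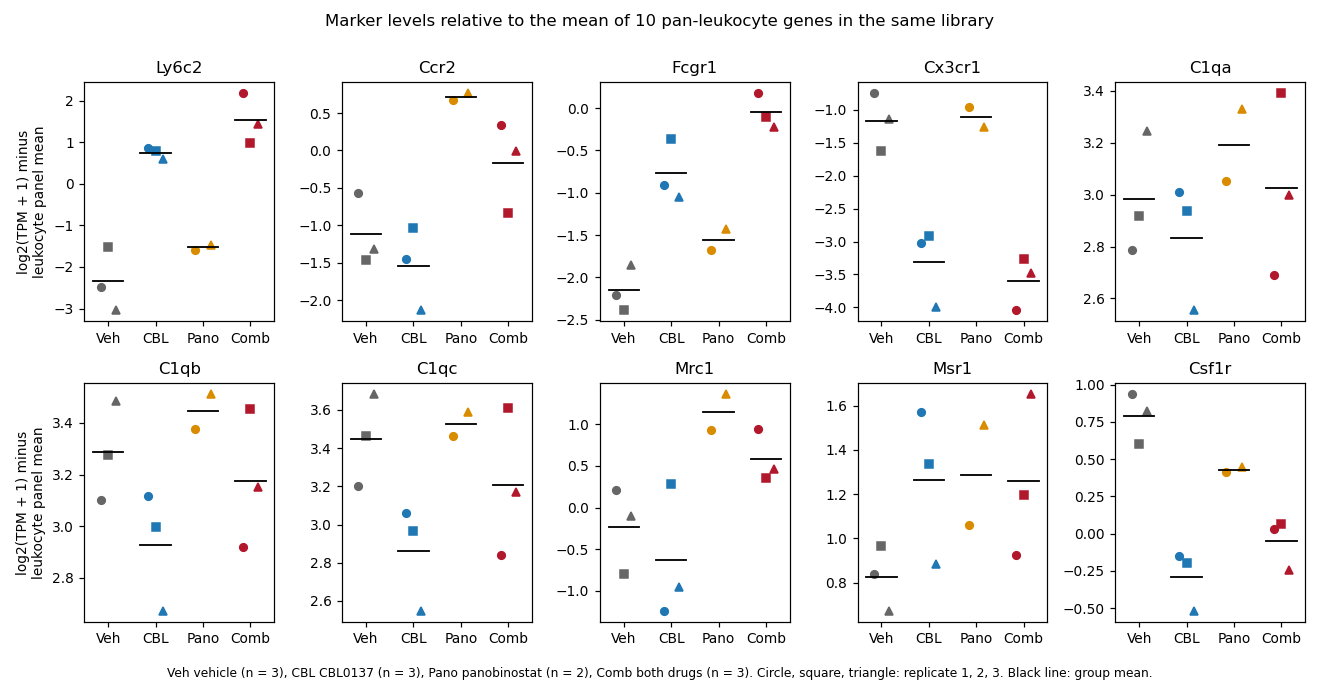
Each marker's log2(TPM + 1) minus the mean log2(TPM + 1) of 10 pan-leukocyte genes in the same library; symbols are replicate numbers and black lines group means, and the axes do not start at 0. Relative Cx3cr1 is lower in the 6 libraries with CBL0137 (-4.04 to -2.91) than in the other 5, and relative Ly6c2 is higher there. Before the subtraction, Cx3cr1 differed from vehicle by -0.25 after CBL0137 and by 1.24 after the combination.

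Genes whose levels over the 11 libraries were most like the markers were listed by Pearson's r of log2(TPM + 1) with the mean of the standardised markers, among the 10976 genes averaging 5 TPM or more. The libraries come from 4 groups, so r largely reflects group differences, and it is given as a description. The genes most like the 3 monocyte markers were Ms4a6c (r = 0.994), Ms4a6d, Glrx, Bst1 and Tlr1. Ms4a6c measured 9.87 to 10.2 TPM in vehicle, 46.6 to 82.7 TPM after CBL0137, 75.9 and 99.8 TPM after panobinostat and 189 to 260.2 TPM after the combination. The genes most like the 7 macrophage markers were Col6a1 (r = 0.995), Camk1, Tm6sf1, Mxra8 and Fkbp7. Col6a1 encodes a collagen chain made by fibroblasts, and measured 11.96 to 15.5, 23.65 to 49.6, 111.7 and 120.6, and 147.6 to 245.8 TPM in the same groups.

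Markers of other cells in the tumour rose too, mostly after panobinostat and the combination and less often after CBL0137. Over all genes tested, 25.5% rose after panobinostat, 35.9% after the combination and 4.99% after CBL0137. Of 10 fibroblast markers, 1 rose after CBL0137, 9 after panobinostat and 9 after the combination, where Fbln1 fell, and they summed to 271 to 459.6, 559 to 1398, 2982 to 3332 and 3648 to 5267 TPM in vehicle, CBL0137, panobinostat and the combination. Of 10 endothelial markers, 4, 10 and 10 rose, with sums of 50.9 to 78.5, 180.1 to 376, 327 to 382 and 804 to 1370.5 TPM. Without CBL0137 replicate 3, 2 endothelial and 1 neutrophil marker rose after CBL0137. Of 6 neutrophil markers tested, 2, 6 and 6 rose, with sums of 3.08 to 19.1, 33.0 to 76.4, 188 to 361 and 446 to 621 TPM over the 11 listed markers in the table. Mpo, Elane and Ngp, defining genes of neutrophil precursors, were listed at 0 in all vehicle libraries. Microglial markers rose in 0, 3 and 4 of 4 tested, and Sall1, a defining gene of microglia, was at most 0.34 TPM in any library. Their part in the marker levels was not tested.

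Erythroid genes, which follow the blood in a tumour, were also measured. The 7 listed genes summed to 422 to 3387 TPM in vehicle, 782 to 8189 TPM after CBL0137, 5396 and 8683 TPM after panobinostat and 5516 to 8658 TPM after the combination. Of 5 tested, 0, 1 and 3 rose (4.99%, 25.5% and 35.9% of all genes tested rose). The globin gene Hbb-bs was listed at 0 in all libraries. The highest CBL0137 sum was in replicate 2, and replicate 3, the highest for all 10 markers, had the lowest. The vehicle and CBL0137 libraries overlapped, and all panobinostat and combination libraries lay above vehicle. The part of blood content in the marker levels was not tested.

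Lymphocyte and dendritic cell markers were counted in the same way. Of all genes tested, 4.99%, 25.5% and 35.9% rose after CBL0137, panobinostat and the combination. The T cell and dendritic cell counts after panobinostat were near that share. Of 9 T cell markers, 0, 2 and 5 rose, with sums of 5.46 to 7.45, 10.4 to 73.2, 16.3 to 17.9 and 30.9 to 88.7 TPM in the 4 groups. Of 8 B cell markers, 1 rose in each comparison with vehicle, which was Cd22, and the sums were 1.70 to 3.29, 5.37 to 179.9, 10.3 to 14.5 and 22.8 to 73.9 TPM. Of 4 natural killer cell markers tested, 0, 0 and 4 rose, and Ncr1 and Gzmb were listed at 0 in all vehicle libraries. Of 8 dendritic cell markers tested, 2, 3 and 6 rose, with sums of 10.6 to 12.8 TPM in vehicle and 64.3 to 77.1 TPM after the combination. Without CBL0137 replicate 3, 0 dendritic cell markers rose after CBL0137. The 8 sympathoadrenal genes of the tumour cells summed to 894 to 1095 TPM in vehicle, 1263 to 1393 TPM after CBL0137, 746 and 964 TPM after panobinostat and 512 to 832 TPM after the combination. After CBL0137, where the sum lay above every vehicle library, 2 rose and 0 fell (1 rose without CBL0137 replicate 3), and after panobinostat 0 rose and 1 fell. After the combination 6 fell and Th and Dbh, of catecholamine synthesis, rose. Values in TPM are shares of a library, and the part of the tumour cell share in the marker levels was not tested.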

How the data were processed

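RNA of 11 Th-MYCN tumours was measured by stranded, ribosome-depleted total RNA sequencing. The authors deposited TPM values for 24411 genes. Per the submitters' processing notes, STAR, SAMtools and RSEM were used with the mm10 build (GRCm38); versions are not given in the sources used here. Since TPM carry no read counts, the depth of each library and the precision it gives are unknown. For 27 genes whose symbol had become a date, the transcript identifier was used.

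Genes reaching 1 TPM in 2 or more libraries (15497; 8914 left out) were tested on log2(TPM + 1) with limma 3.58.1 in R 4.3.3, with 1 mean per group over all 11 libraries, 7 residual degrees of freedom, a trended prior, 2-sided tests and Benjamini-Hochberg adjustment over all genes tested at 0.05. There were 7 comparisons. The p-values measure the spread between these mice. The series' design gives 3 mice per group; panobinostat has 2 libraries here, and its replicate 2 is not analysed here. Summaries used Python 3.11.15 and pandas 2.3.3. The fit was tested on simulated data.

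The members and lists were chosen with earlier results of these data known, so no count is independent evidence. Named genes were the 10 markers, Ly6c1, the ligands of the marker receptors, up to 4 genes per list by lowest adjusted p against vehicle, markers listed at 0, and the 5 genes most like each marker set. Some genes that this rule takes are not reported. Ptprc, Sall1, Fbln1, Th and Dbh were named after their values were seen. Some genes are in more than 1 list (Itgam, Itgax, Ly6c1, Fcgr1). Of 29 complement genes listed, 28 are in the table. Ly6g and Trac were not used here. Promoter windows came from RefSeq (GRCm38.p6), which matched 7 of 9 markers looked up. Alternatives were other pseudocounts, filters, scalings, weights and fits, and leaving out each library.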

Additional observations from a re-analysis of the deposited data

How the results depend on the processing

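Each marker was refitted under 24 alternatives (23 for the interaction), 2 of them chosen after seeing the data (as was refitting the lists without CBL0137 replicate 3): Ly6c1 and Ly6c2 summed, and CBL0137 replicate 3 and combination replicate 2 left out together. Of 1670 values, 1580 kept direction and side of the threshold, 67 lost their call, 11 gained one and 12 changed sign. All 10 calls of panobinostat against vehicle and of the combination against CBL0137 were kept in every alternative. Between the combination and panobinostat, the 4 markers called became 2 with the replicate number as a block and 2 with only the groups compared, while calls over all genes went from 1634 to 345 and 477. Between panobinostat and CBL0137, the 7 called became 0 with only the groups compared, where 0 of all genes were called in place of 2935. With 1 library left out, the counts ranged from 5 to 8 for CBL0137 against vehicle, 2 to 6 for the combination against panobinostat and 0 to 8 for panobinostat against CBL0137. Same-numbered libraries deviated together in 2 of 15 pairs (r over 0.1, range -0.26 to 0.19). With groups of 2 or 3 libraries, such r cannot show whether the numbers pair mice. The block changed no other count of markers by over 1.5 times. Over all genes it called 521 in place of 949 for CBL0137 against vehicle, and 1249 in place of 2935 for panobinostat against CBL0137. Signs changed only where the estimate was not called. The interaction of Ly6c2 was 0.50 and of Fcgr1 0.34 with a pseudocount of 5. Ccr2 between the combination and panobinostat was -0.068 under quantile normalization, -0.0074 after rescaling without small structural RNA and histone genes, and -0.18 (without combination replicate 1) to 0.42 with 1 library left out. Fcgr1 between panobinostat and CBL0137 was 0.16 with array weights, 0.29 without CBL0137 replicate 3 and combination replicate 2, and -0.31 to 0.29 (without CBL0137 replicate 3) with 1 library left out. The interaction of Csf1r was 0.041 with array weights and -0.47 to 0.067 (without CBL0137 replicate 3) with 1 library left out. The cause of these changes was not tested. Over all genes, quantile normalization called 3327 between the combination and panobinostat in place of 1634, and 535 in place of 949 were called for CBL0137 against vehicle without CBL0137 replicate 3. A group left with 1 library was assumed to vary like the others. The share of small structural RNA and histone genes ran from 16.5% of TPM in combination replicate 2 to 30.6%, and rescaling without them lost only the Msr1 call between the combination and panobinostat.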

Other observations

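Ly6c2 sits in a cluster of related Ly6 genes on chromosome 15. Of 10 cluster genes tested, 4 rose after CBL0137 (4.99% of genes tested rose), 6 after panobinostat (25.5%) and 9 after the combination (35.9%). Ly6a, which encodes the stem cell antigen Sca-1, measured 6.53 to 18.6 TPM in vehicle, 97.2 to 319 TPM after CBL0137, 96.2 and 128 TPM after panobinostat and 510.4 to 1297 TPM after the combination. It was higher after the combination than after panobinostat by 2.93 (limma, adjusted p = 0.0150), and Ly6e was higher by 1.91 (adjusted p = 0.0105). Gpihbp1, an endothelial gene of the cluster, differed there by 0.23 (adjusted p = 0.567) and was higher after panobinostat than after CBL0137 by 1.34 (adjusted p = 0.0146).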
